A study of Homo sapiens with 6 samples.

Results

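The genes described here are the protein-coding genes of human mitochondrial DNA (mtDNA) that the authors' table lists, together with TFB2M and MGME1, a pair of nuclear genes whose products transcribe and copy that DNA. They were taken as every protein-coding row on chromosome MT plus these 2 symbols, which gave 10 genes of the 7983 in the table: MT-ND1, MT-CO1, MT-CO2, MT-ATP6, MT-ND3, MT-ND4L, MT-ND4 and MT-CYB, with TFB2M and MGME1. The other 5 protein genes of mtDNA lie outside that table and were not analysed here, so their direction is unknown. The cells were Kasumi-1, an established acute myeloid leukaemia line that carries the t(8;21) translocation, grown in RPMI medium with serum. Control cells were labelled sgNT with genotype WT (3 libraries), and knockout cells were labelled sgSETD8 with genotype SETD8 knockout, made with CRISPR/Cas9 (3 libraries). SETD8, whose current symbol is KMT5A, methylates lysine on histone H4. The sources used here do not say whether the knockout libraries come from 1 clone, a pool or different guides, nor whether numbered libraries were separate cultures, and the p-values therefore rest on a spread between libraries that may be technical.

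Mitochondrial DNA is a small circle present in many copies per cell. Its heavy strand is read as 1 long precursor that holds both ribosomal RNAs, most transfer RNAs and nearly all mRNAs, and the transfer RNAs between them are cut out to release the mRNAs, which then receive short poly(A) tails. The mRNAs encode core subunits of respiratory complexes I, III and IV and of ATP synthase (complex V). All proteins that transcribe and replicate mtDNA are made from nuclear genes. TFB2M opens the promoter for the mitochondrial RNA polymerase POLRMT beside TFAM, and MGME1 is an exonuclease that trims single-stranded ends during mtDNA replication and helps to clear linear mtDNA.

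All values are normalized read counts as deposited. A log2 fold change is the knockout mean minus the control mean of log2(value + 1), with its standard error (SE) and adjusted p from limma-trend. The listed genes held 10966349 to 12557974 reads per library. In the authors' deposited table the largest unadjusted p of any listed gene is 0.049998, from the same libraries, so passing a test here is expected of nearly any row and a gene outside the table cannot be called unchanged. Of 7516 genes tested, 94.1% passed at adjusted p below 0.05, 47.3% higher and 46.7% lower in knockout cells, with a median log2 fold change of 0.14. KMT5A, the targeted gene, read 1191, 1212 and 1255 in control and 880, 933 and 939 in knockout libraries (log2 fold change -0.41, limma-trend adjusted p = 5.65e-05). Of the line's 7 markers, RUNX1T1, KIT, CD34, CD33, MPO and ANPEP were in the table, and their levels did not all hold steady. MPO went from 12254 to 1541 (log2 fold change -2.99), KIT from 60704 to 43551 (-0.48), CD33 from 435 to 990 (1.19) and ANPEP from 106 to 268 (1.34), while RUNX1T1 (2760 and 3054) and CD34 (7153 and 7818) did not pass the test. The part of these marker changes in the results was not tested. EPCAM, a marker of epithelial cells, was also listed (1349 and 1936), and its part in the results was not tested.

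All 8 listed mtDNA mRNAs were higher in knockout cells, and for each of them every knockout library stood above every control library. Across all tested genes, 95.4% had groups that did not overlap, 48.0% with knockout higher and 47.4% with knockout lower, so the count of 8 of 8 is read against that share and against a table chosen for change. The log2 fold changes ran from 0.24 for MT-ND4L to 1.08 for MT-CYB, with a median of 0.46. In bulk RNA, a change in the share of cells that express a gene and a change in RNA per cell cannot be told apart. Knockout 1 had the highest value of the 6 libraries for all 8 genes, and control 3 had the highest control value for all 8. Without knockout 1 the median log2 fold change of the 8 genes was 0.31, and 7 of them passed the test. These transcripts are short (median 820 bases against 5086 over all tested genes), and with the trend of fold change against gene length removed the median was 0.27 and 5 passed. MT-ND1, MT-CO2 and MT-ATP6 were then at 0.30, 0.27 and 0.27, while MT-CO1, MT-ND4L and MT-ND4 did not pass (0.062, 0.077 and 0.13).

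The last bases of the 8 genes as annotated are shown because the library selected poly(A) tails. Some of these mRNAs depend on the tail to finish their stop codon. An annotated end need not carry a tail, since MT-ND4L ends inside the mRNA it shares with MT-ND4. The sequences are those of GENCODE release 29 (hg38), 5′ to 3′, all on the plus strand as annotated, and capitals mark the last codon or the part of it that the DNA holds.
MT-ND1 (chrM:4242-4262): cagcattccccctcaaaccTA
MT-CO1 (chrM:7425-7445): cccgtatacataaaatctAGA
MT-CO2 (chrM:8249-8269): gggcccgtatttaccctaTAG
MT-ATP6 (chrM:9187-9207): tacctgcacgacaacacaTAA
MT-ND3 (chrM:10384-10404): aaggattagactgaaccgaaT
MT-ND4L (chrM:10746-10766): ctaaacctactccaatgcTAA
MT-ND4 (chrM:12117-12137): tcattaccgggttttcctctT
MT-CYB (chrM:15867-15887): acaaaatactcaaatgggccT
In MT-ND1, MT-ND3, MT-ND4 and MT-CYB the DNA ends within a codon, and the poly(A) tail supplies the missing A residues of the stop. As annotated, MT-CO1, MT-CO2, MT-ATP6 and MT-ND4L end with a whole codon. The last base of MT-ATP6 (9207) is, however, also annotated as the first base of MT-CO3. Whether the MT-ATP6 mRNA keeps that base is not known here, so its place in this group is uncertain. The genes that end within a codon had log2 fold changes of 1.08 (MT-CYB), 0.52 (MT-ND1), 0.45 (MT-ND3) and 0.36 (MT-ND4). Those annotated with a whole codon had 0.47 (MT-ATP6), 0.46 (MT-CO2), 0.29 (MT-CO1) and 0.24 (MT-ND4L). A link between the ending and the size of the change was not tested.

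Complex I takes 4 of these genes. MT-ND1 (mtDNA 3307 to 4262), a membrane arm subunit, read 19529, 20007 and 22253 in control and 35950, 25859 and 27296 in knockout libraries. Its knockout libraries differed among themselves more than the controls did (SD 5459 against 1455), and it rose by 0.52 on the log2 scale (SE 0.09, limma-trend adjusted p = 5.60e-05). MT-ND4 (10760 to 12137), a proton-pumping subunit, read 83269, 82745 and 89867 in control and 121557, 103795 and 104605 in knockout libraries (log2 fold change 0.36, limma-trend adjusted p = 0.00103). MT-ND3 (10059 to 10404), a small subunit next to the ubiquinone site, read 6213, 5415 and 6628 in control and 10520, 7196 and 7518 in knockout libraries. MT-ND3 rose by 0.45 on the log2 scale (limma-trend adjusted p = 0.000705; 0.28 without knockout 1), and knockouts 2 and 3 lay close above control 3. A DESeq2 Wald test on the recovered reads gave MT-ND3 an adjusted p of 0.0668, and the authors' deposited table gives it 0.0567, the only one of the 8 above 0.05 there.

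MT-ND4L (10470 to 10766) had the smallest change of the 8. It read 15487, 16099 and 17771 in control and 21484, 18083 and 18779 in knockout libraries, so the lowest knockout library was 1.02 times the highest control. It rose by 0.24 on the log2 scale (SE 0.07, limma-trend adjusted p = 0.00739), and it did not pass without control 1 (0.20, limma-trend adjusted p = 0.0595). MT-ND4L and MT-ND4 are carried on 1 bicistronic mRNA and share 7 bases, shown in capitals because reads across them cannot be assigned to 1 gene.
MT-ND4L end (chrM:10746-10766): ctaaacctactccaATGCTAA
MT-ND4 start (chrM:10760-10780): ATGCTAAaactaatcgtccca
The ATG that starts MT-ND4 lies inside the end of MT-ND4L, and the TAA that ends MT-ND4L lies inside MT-ND4. Although the genes share a transcript, their changes were 0.24 and 0.36, and the treatment of the shared bases in the authors' counting is unknown here.

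Complex IV and complex V follow. MT-CO1 (5904 to 7445), the catalytic subunit of cytochrome oxidase, was the most abundant row of these genes at 179482, 182359 and 197093 in control and 262136, 218464 and 207201 in knockout libraries. Knockout 3 was 1.05 times control 3, and the log2 fold change of 0.29 (SE 0.10, limma-trend adjusted p = 0.0250) was the least secure of the 8. It did not pass without any 1 of control 1, control 2, control 3 or knockout 1, with log2 fold changes of 0.27, 0.28, 0.33 and 0.19 and limma-trend adjusted p of 0.101, 0.158, 0.0695 and 0.0709. MT-CO2 (7586 to 8269), which takes electrons from cytochrome c, read 43220, 45533 and 50845 in control and 77862, 59294 and 56733 in knockout libraries (log2 fold change 0.46, limma-trend adjusted p = 0.000373). MT-ATP6 (8527 to 9207), part of the proton channel of ATP synthase, read 41049, 44925 and 45247 in control and 69745, 56364 and 56474 in knockout libraries (log2 fold change 0.47, limma-trend adjusted p = 5.14e-05). In both genes the groups stood apart, and knockouts 2 and 3 were near each other and well below knockout 1. In the annotation MT-ATP6 overlaps MT-ATP8 (8366 to 8572), and the treatment of those shared bases in the authors' counting is also unknown here.

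MT-CYB (14747 to 15887) encodes cytochrome b, the single mtDNA subunit of complex III, and changed more than any other of the 8 genes. It read 15755, 16199 and 17294 in control and 41105, 31652 and 31896 in knockout libraries. The lowest knockout library was 1.83 times the highest control library, and the means differed 2.13-fold, with a log2 fold change of 1.08 (SE 0.08, limma-trend adjusted p = 2.64e-10). Over the alternatives tried, its log2 fold change stayed between 0.85 and 1.14.

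**Figure D1:**
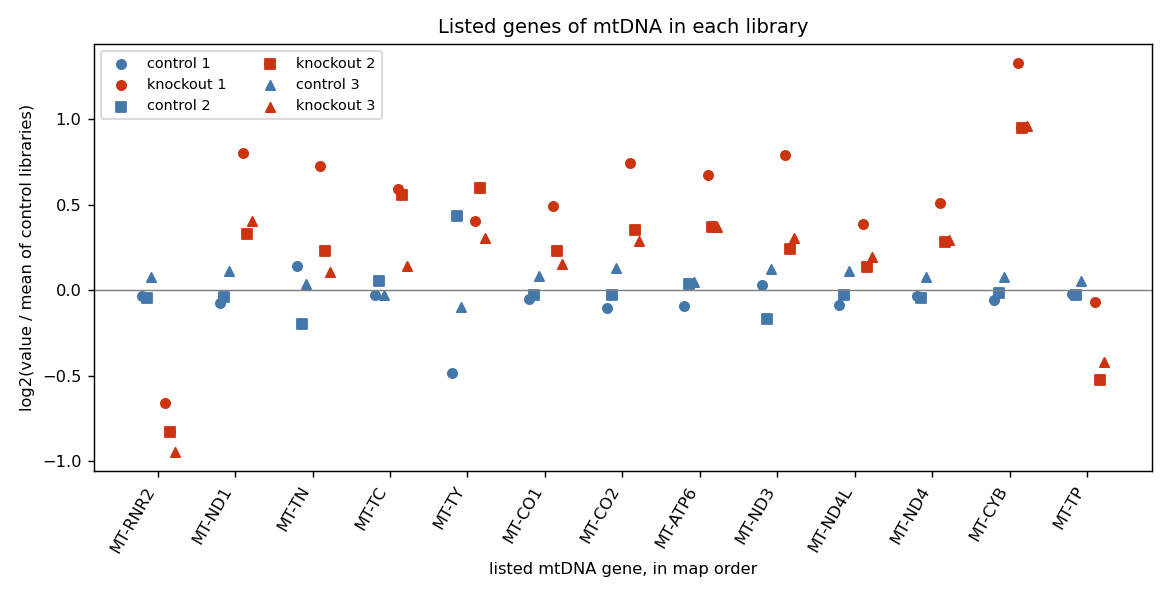
Each point is 1 library's normalized read count for a listed mtDNA gene, as log2 of its ratio to the mean of the 3 control libraries (y axis), with the 13 listed genes in map order (x axis), control in blue and knockout in red. MT-CYB stands highest, the other mRNAs sit above 0 with knockout 1 on top, and MT-RNR2 and MT-TP lie below 0 in every knockout library.

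The rise of MT-CYB beyond the other mRNAs was seen within each library, where the scaling between libraries plays no part. MT-CYB made up 3.90%, 3.92% and 3.87% of the reads in the 8 mRNAs in control and 6.42%, 6.08% and 6.25% in knockout libraries. The difference of MT-CYB from the median of the other 7 mRNAs, in log2 units, moved from -1.41 ± 0.05 (SD, n = 3) to -0.81 ± 0.04, a shift of 0.61 that left no overlap (exact permutation test, two-sided, p = 0.1, the smallest that 3 against 3 libraries can give). MT-CYB had the largest change of the 8 in these same libraries, so the comparison describes that change and is no independent test of it. Leaving out each library in turn kept the shift between 0.58 and 0.62. MT-CO1 moved the other way as a share, from 44.2% ± 0.18 to 41.2% ± 0.71 of mRNA reads.

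Each of the other 7 mRNAs was also compared with MT-ND1, the first mRNA on the heavy strand. The log2 ratio of MT-CYB to MT-ND1 went up by 0.56, while those of MT-ND4L, MT-CO1 and MT-ND4 went down by 0.28, 0.22 and 0.15, without overlap between groups in these 4 (exact permutation p = 0.1 each, 0.175 after Benjamini-Hochberg adjustment over 7 ratios). Without knockout 1 the ratio of MT-ND4 to MT-ND1 went down by 0.080. The ratios of MT-CO2, MT-ATP6 and MT-ND3 to MT-ND1 overlapped between groups, with differences of -0.05, -0.04 and -0.06. The mRNAs therefore changed by unequal amounts, and the size of the change did not follow map order, since MT-ND4L and MT-ND4 lie between MT-ND3 and MT-CYB.

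Per kilobase of transcript, the order of levels in control cells was MT-CO1 (120824 normalized reads per kilobase), MT-CO2 (68030), MT-ATP6 (64229), MT-ND4 (61897), MT-ND4L (55394), MT-ND1 (21544), MT-ND3 (17588) and MT-CYB (14387). MT-CO2, MT-ATP6 and MT-ND4 overlapped their neighbours in that order across libraries, and the other steps did not. In knockout cells MT-CYB reached 30574 per kilobase, above MT-ND3 (24310) and next to MT-ND1 (31069), and these 3 overlapped. MT-CYB was thus the lowest of the 8 in control cells and had neighbours within its spread in knockout cells.

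The 16S ribosomal RNA gene MT-RNR2 (1671 to 3229), which lies just upstream of MT-ND1 on the same precursor, went in the opposite direction. It read 110447, 109530 and 119215 in control and 71561, 63684 and 58727 in knockout libraries, a 1.75-fold fall (log2 fold change -0.81, SE 0.08, limma-trend adjusted p = 3.59e-08). MT-RNR2 took 21.3%, 20.8% and 20.9% of all listed mtDNA reads in control and 9.99%, 10.8% and 10.3% in knockout libraries. MT-RNR2 was measured here after poly(A) selection, and how fully that step recovers this ribosomal RNA is not known here. Its reads, and their fall, therefore need not follow its amount in the cell. The 8 mRNAs together took 3.61%, 3.64% and 3.89% of listed reads in control and 5.24%, 4.32% and 4.35% in knockout libraries (exact permutation p = 0.1, 0.117 adjusted over 7 shares). With all 13 mtDNA rows in the sum, the groups overlapped, at 4.62% to 4.95% against 4.88% to 5.86% (exact permutation p = 0.3).

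Relative to MT-RNR2, a comparison chosen after the values were seen, every mRNA was higher in knockout cells by 1.05 (MT-ND4L) to 1.89 (MT-CYB) in log2 units. The log2 ratio of MT-ND4 to MT-RNR2 was -0.41 on average in control cells, with an SD of 0.002, and 0.76, 0.70 and 0.83 in the knockout libraries. For all 8 ratios the groups did not overlap (exact permutation p = 0.1 each). The unknown recovery of MT-RNR2 limits each of these ratios.

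**Figure D2:**
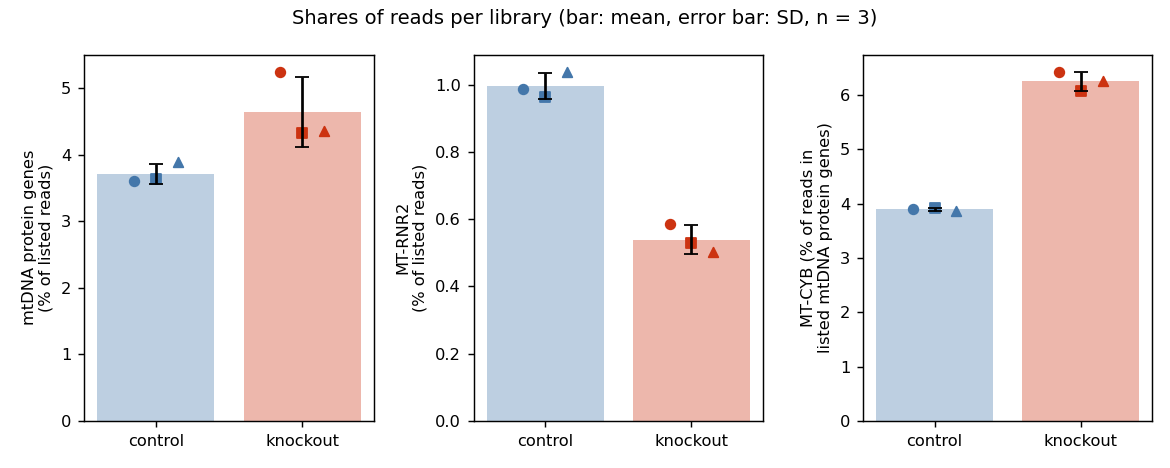
Bars are means and error bars SD of 3 libraries, and points are single libraries, for the share of listed reads in the 8 mtDNA mRNAs (left), the share in MT-RNR2 (middle) and MT-CYB as a share of mRNA reads (right), all in percent. The MT-CYB share is nearly constant within a group, at 3.87% to 3.92% in control and 6.08% to 6.42% in knockout libraries, while knockout 1 stands apart in the mRNA share.

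The table also lists 4 transfer RNA genes, all annotated on the light strand. MT-TC (5761 to 5826) rose from 1450 ± 45.2 to 1971 ± 324 (limma-trend adjusted p = 0.000365), with knockout 3 close to the controls at 1599. MT-TN and MT-TY passed the test at log2 fold changes of 0.36 and 0.48 but overlapped between groups, and MT-TN did not pass without control 2 (0.26) or knockout 1 (0.18), nor MT-TY without any 1 of control 1, control 3, knockout 1 or knockout 2 (0.27, 0.46, 0.50 and 0.40). Neither passed with DESeq2, with scaling to the nuclear listed total or with the length trend removed. MT-TP (15956 to 16023), the last gene of the map, fell from 840 ± 26.6 to 671 ± 115, with knockout 1 at 800 near the lowest control of 823. It did not pass without knockout 2 (-0.25, limma-trend adjusted p = 0.0846). The heavy-strand precursor runs antisense to these 4 genes, and it is not known here whether strand was used in counting, so their reads may come from either strand.

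Copies of mtDNA genes in the nuclear genome can take reads from these mRNAs. MTATP6P1 on chromosome 1 (633696 to 634376, hg38) matches MT-ATP6 over its whole length of 681 bases with 10 mismatches, an identity of 98.5%. The first 60 bases of each are shown to illustrate how alike the copies are, with the differing base in capitals. The longest run of identical bases between them is 141.
MT-ATP6 (chrM:8527-8586): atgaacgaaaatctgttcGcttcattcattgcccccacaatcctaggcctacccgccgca
MTATP6P1 (chr1:633696-633755): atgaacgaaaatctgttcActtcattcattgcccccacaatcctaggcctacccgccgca
MTATP6P1 read 3360, 2041 and 3923 in control and 5499, 4599 and 4682 in knockout libraries. That was 4.54% to 8.67% of the MT-ATP6 value in control and 7.88% to 8.29% in knockout libraries, without separation of the groups (exact permutation p = 0.9). MTCO1P12, 98.6% identical to MT-CO1, went from 500 ± 88.1 to 698 ± 39.0, or 0.27% and 0.31% of MT-CO1. Both rows are therefore uncertain as genes of their own, and each level is small beside that of the mtDNA gene it matches. The copies MTND4P12 and MTATP6P26 had means under 20 in both groups.

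TFB2M rose in knockout cells. It lies on the minus strand of chromosome 1 (246540560 to 246566324, hg38) with 8 exons in its GENCODE transcript, and read 372, 279 and 319 in control and 696, 573 and 564 in knockout libraries. The groups stood apart, with the lowest knockout 1.52 times the highest control, and the knockout mean was 1.89-fold higher, a log2 fold change of 0.92 (SE 0.12, limma-trend adjusted p = 1.00e-06). As with the mtDNA mRNAs, knockout 1 was the highest of the 6 libraries. Without it the log2 fold change was 0.82, and TFB2M passed under every alternative tried, with adjusted p from 3.22e-11 to 0.000127.

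By the listed coordinates, the start of TFB2M lies 120 bases from that of CNST, a gene read in the other direction, and this neighbour fell. CNST, which encodes consortin, a protein of connexin transport, read 1315, 1456 and 1339 in control and 820, 796 and 737 in knockout libraries (log2 fold change -0.80, limma-trend adjusted p = 9.68e-09). The log2 ratio of TFB2M to CNST went from -2.09 ± 0.28 to -0.37 ± 0.12 (n = 3 each, exact permutation p = 0.1, 0.2 adjusted over 2 pairs, a comparison chosen after the values were seen). The promoter window below, from RefSeq (GRCh38.p14), runs from 250 bases before to 50 bases after the RefSeq start of TFB2M. It includes the start of CNST. That RefSeq start is not the listed start used for the distance above.
TFB2M promoter (chr1:246566212-246566511, minus strand): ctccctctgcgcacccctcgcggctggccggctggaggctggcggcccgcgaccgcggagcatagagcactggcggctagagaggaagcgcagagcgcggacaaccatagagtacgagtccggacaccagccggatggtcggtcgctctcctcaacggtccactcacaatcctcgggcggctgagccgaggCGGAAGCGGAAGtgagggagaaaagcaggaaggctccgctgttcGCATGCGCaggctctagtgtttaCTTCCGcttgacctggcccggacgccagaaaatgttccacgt
Capitals mark letters known as cores of binding motifs, searched on both strands. GCATGCGC, a core of the NRF1 motif, occurs once, at position -15 from the start, and is found in 3.05% of all 35116 promoter windows. CGGAAG, a core shared by ETS factors such as GABPA, occurs 3 times, at positions -59 and -53 and, on the other strand, at 9, and is found in 19.5% of windows. AAGATGGC (YY1) and TGACGTCA (CRE, the site of CREB and ATF factors) were not found in this window. NRF1 and GABPA are textbook regulators of TFB2M. Their own RNA levels went from 335 ± 21.2 to 425 ± 18.8 and from 710 ± 49.4 to 940 ± 56.2 (limma-trend adjusted p = 0.0130 and 0.000328). With the median of genes within 5 Mb subtracted, NRF1 passed at 0.48 and GABPA did not (-0.07). Their part in the change of TFB2M was not tested.

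MGME1 fell in knockout cells, against the direction of the mtDNA mRNAs and of TFB2M. It lies on the plus strand of chromosome 20 (17968913 to 17991122, hg38) and read 715, 704 and 693 in control and 424, 389 and 404 in knockout libraries. Its libraries were tightly grouped, with coefficients of variation of 1.61% and 4.32%, and the lowest control library was 1.63 times the highest knockout library. It changed by -0.79 on the log2 scale (SE 0.09, limma-trend adjusted p = 2.04e-07), with a mean 1.73-fold lower. The log2 ratio of TFB2M to MGME1 within a library was -0.94, -1.33 and -1.12 in control and 0.71, 0.56 and 0.48 in knockout libraries, so MGME1 had the higher count in every control library and TFB2M in every knockout library.

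By the listed coordinates, MGME1 shares its first 68 bases with the start of SNX5, a sorting nexin gene of endosomal transport on the other strand. SNX5 fell by a like amount. SNX5 read 2793, 2658 and 2588 in control and 1640, 1665 and 1535 in knockout libraries (log2 fold change -0.73, limma-trend adjusted p = 2.05e-09). The log2 ratio of MGME1 to SNX5 was -1.93 ± 0.03 in control and -1.99 ± 0.09 in knockout cells and overlapped between groups (n = 3 each, exact permutation p = 0.4). OVOL2 also overlaps MGME1 on the other strand in the annotation and was not analysed here, so the reads of MGME1 are uncertain to the extent that the counting ignored strand.
MGME1 promoter (chr20:17968768-17969067, plus strand): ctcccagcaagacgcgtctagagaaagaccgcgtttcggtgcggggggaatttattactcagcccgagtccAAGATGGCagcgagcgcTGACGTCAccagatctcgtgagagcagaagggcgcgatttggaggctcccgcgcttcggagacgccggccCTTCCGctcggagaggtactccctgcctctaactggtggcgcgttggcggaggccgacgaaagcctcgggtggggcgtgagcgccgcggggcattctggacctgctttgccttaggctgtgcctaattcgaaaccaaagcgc
In this window the capitals mark AAGATGGC at position -179 (in 2.89% of all windows), TGACGTCA at -162 (1.85%) and CGGAAG on the other strand at -92. GCATGCGC was not found. Positions count from the RefSeq start of MGME1, which is not its listed start. The 4 motifs were chosen after both promoters had been read, and a match describes letters only.

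**Figure D3:**
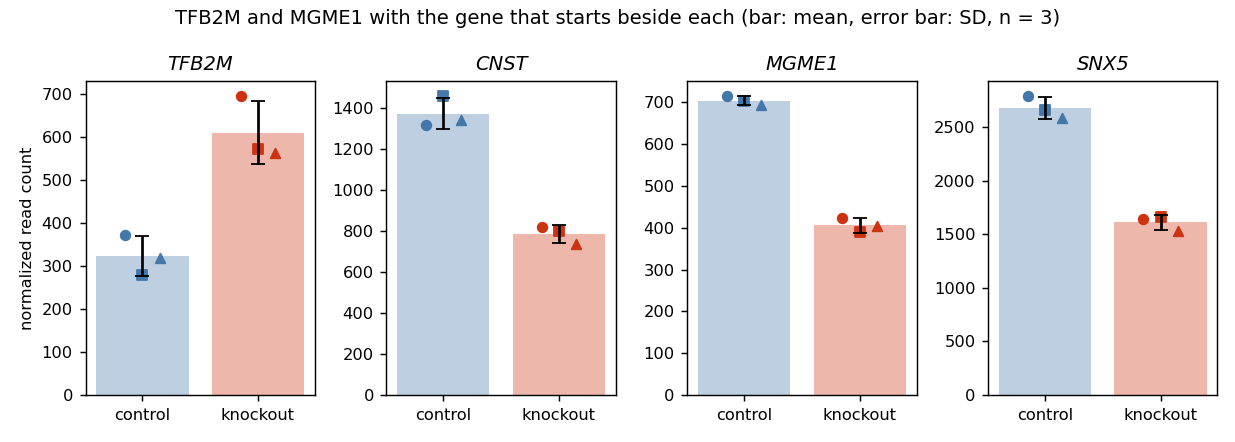
Bars are means and error bars SD of 3 libraries, and points are single libraries, of the normalized read count (y axis, from 0, 1 scale per gene) for TFB2M and CNST and for MGME1 and SNX5. TFB2M is higher and CNST lower in all knockout libraries, whereas MGME1 and SNX5 are both lower.

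The surroundings of the 2 nuclear genes differed. Within 5 Mb of MGME1, 18 of 18 listed genes with a mean of at least 50 were lower in knockout cells and all 18 passed the test. Among all tested genes, 46.7% were called lower and 94.1% were called in either direction. The 18 neighbours had a median log2 fold change of -0.58. MGME1 lay 0.21 below that median, with 4 neighbours lower still. With the median of its neighbours subtracted from the knockout libraries, MGME1 stood at -0.21 (limma-trend adjusted p = 0.0733), and it no longer passed. On the far side of SNX5 the nearest listed protein-coding gene was RRBP1, a ribosome receptor (-0.35), and on the other side KAT14, an acetyltransferase (-0.73). Within 5 Mb of TFB2M, 10 of 15 listed genes were higher and 5 lower, with a median of 0.26. TFB2M lay 0.66 above that median and passed with it subtracted (limma-trend adjusted p = 0.000127), and the 1 neighbour above it was KIF26B, a kinesin 831129 bases away (105 ± 35.8 to 236 ± 47.7). The neighbours of TFB2M ran from -0.80 (CNST) to 1.19 (KIF26B). Subtraction takes each median as a fixed number, so its adjusted p-values, here and below, leave out the spread among neighbours. The part of neighbouring genes in the changes of TFB2M and MGME1 was not tested beyond this subtraction.

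**Figure D4:**
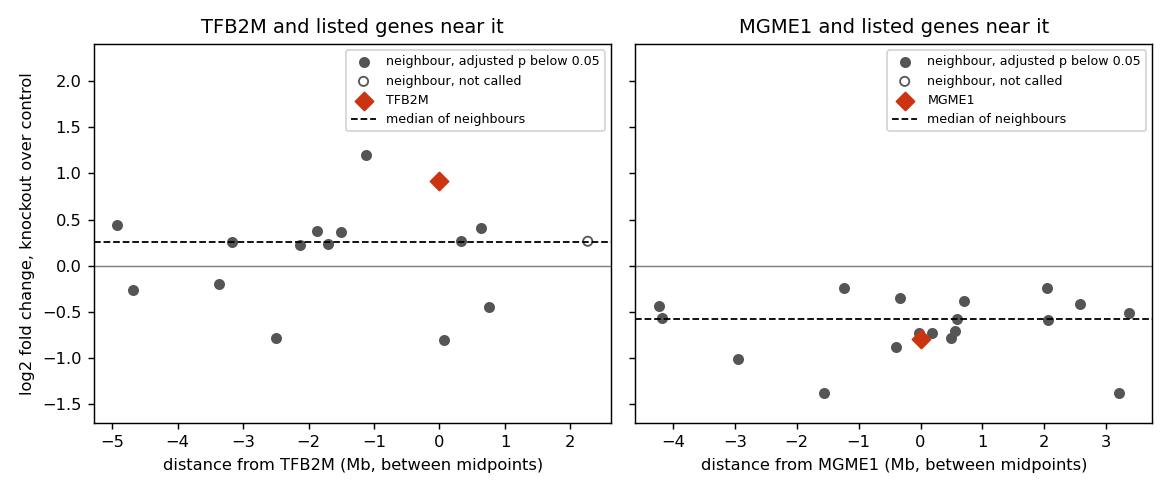
Each point is a listed gene with a mean of at least 50 within 5 Mb of TFB2M (left) or MGME1 (right), with its distance in Mb on the x axis and its log2 fold change on the y axis, the gene itself as a red diamond and the median of its neighbours as a dashed line. All neighbours of MGME1 lie below 0, while those of TFB2M lie on both sides.

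Likeness of pattern was measured as the Euclidean distance between profiles of log2(value + 1), centred on the control mean, over the 6 libraries and 6094 other protein-coding genes whose mean was 100 or more. The 3 genes nearest to MT-CYB were nuclear: IFNGR2, a chain of the interferon gamma receptor, TIMM8B of the mitochondrial import system and CD53, a tetraspanin, at distances of 0.17, 0.17 and 0.20. Of the mtDNA genes, MT-ND1 came nearest to MT-CYB, at rank 962. The genes nearest to MT-ND1 were ATOX1, a copper chaperone, MT-CO2 and NUTF2, a nuclear transport factor, with MT-ATP6 at rank 6 and MT-ND3 at rank 11. TFB2M was nearest to DBI, SPPL2A and MRPL13, and MT-CYB was at rank 145 for it. MGME1 was nearest to STK39, MSL2 and PTMS. With 2 groups, such distances mostly reflect the size of the group difference.

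The wider set of genes that express and maintain mtDNA was described from 9 lists, counted against the 47.3% higher and 46.7% lower among all tested genes. Of 134 genes written in the lists, each counted once, 77 were tested, with 57 higher and 14 lower. The others lay outside the authors' table, so counts and medians cover only part of each list. The median log2 fold change of the 77 was 0.34. In mtDNA transcription all 4 tested genes of 8 written were higher: TFB2M, TFAM (1968 ± 200.4 to 2844 ± 33.9), which packages mtDNA and binds its promoters, the polymerase POLRMT (1830 ± 87.1 to 2378 ± 126) and MTERF3 (487 ± 26.3 to 661 ± 93.7). TFB2M had the largest change of the 4. With the median of neighbouring genes subtracted, TFAM, POLRMT and MTERF3 were at log2 0.10, -0.10 and -0.03 (limma-trend adjusted p = 0.565, 0.495 and 1) and TFB2M was the 1 gene of the list that still passed. MTERF3 also did not pass with the length trend removed (0.21, limma-trend adjusted p = 0.149).

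In mtDNA replication and repair, where MGME1 belongs, the 9 tested genes split, with 4 higher, 4 lower and 1 not passing. Besides MGME1, POLG2, the accessory subunit of the mtDNA polymerase, fell from 988 ± 44.4 to 716 ± 39.1, and OGG1, a glycosylase of oxidised guanine, from 236 ± 12.7 to 162 ± 17.5. The fourth lower gene, named after its value was seen, was LIG3, a DNA ligase, which went from 907 to 763. SSBP1, the mitochondrial single-strand binding protein, rose from 1370 ± 107 to 1837 ± 157, and POLG, the catalytic polymerase subunit, seen after the fact, from 1704 to 2200. The helicase TWNK did not pass (589 to 700, limma-trend adjusted p = 0.0530). With the median of neighbouring genes subtracted, OGG1 no longer passed (-0.36, limma-trend adjusted p = 0.0730), POLG2 turned to 0.19 without passing (0.0640), and LIG3 turned and passed as higher at 0.24 (0.0207), while TWNK passed at 0.90. Among the genes called higher, FEN1 went to -0.12 without passing (0.281), and TOP1MT turned and passed as lower at -0.39 (8.30e-05). With the length trend removed LIG3 was at -0.04 and did not pass.

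The genes that cut, tail, bind and degrade mitochondrial RNA were mostly higher, with 14 of 15 higher and 1 lower and a median of 0.42. SLIRP, which with LRPPRC stabilises mtDNA mRNAs, rose from 437 ± 27.7 to 871 ± 67.9 (log2 fold change 0.99, limma-trend adjusted p = 7.90e-09), and SUPV3L1, the helicase of the mitochondrial degradosome, from 994 ± 85.5 to 1511 ± 95.3. FASTKD5, which is needed to process junctions that hold no transfer RNA, rose from 420 ± 35.4 to 609 ± 118, and FASTKD3 from 531 ± 15.5 to 756 ± 57.5. The lower gene, named after its value was seen, was MTPAP, the mitochondrial poly(A) polymerase, which went from 1137 to 981 (log2 fold change -0.22, limma-trend adjusted p = 0.0300), and it turned to 0.17 without passing when the median of neighbouring genes was subtracted. This list had no lower call with the length trend removed, or without any 1 library other than knockout 1. With the median of neighbouring genes subtracted, 6 of the 15 were called higher; SLIRP, SUPV3L1 and FASTKD5 passed at 1.24, 0.29 and 0.98 and FASTKD3 did not (-0.16).

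Enzymes that modify mitochondrial ribosomal and transfer RNA had 7 of 8 higher and 0 lower (median 0.41), led by NSUN2 (log2 0.71) and TRMU (0.63), a methyltransferase and a thiolating enzyme of transfer RNA. Nucleoid genes had 7 of 7 higher (median 0.40), with ATAD3B from 417 ± 27.8 to 649 ± 80.8. Markers of mitochondrial mass had 9 of 10 higher (median 0.38), with the chaperonin HSPD1 from 13114 ± 336 to 19963 ± 973 and the outer membrane channel VDAC3 from 2304 ± 76.8 to 3497 ± 282. In these 3 lists the counts fell to 1, 2 and 5 with the median of neighbouring genes subtracted. NSUN2, TRMU and ATAD3B then did not pass (0.07, 0.22 and 0.22), and LONP1, TOMM20 and TFB1M passed as lower (-0.26, -0.22 and -0.35). Genes of nucleotide supply split with 6 higher and 3 lower of 10, but 3 were higher with upper-quartile scaling, 2 with scaling to the nuclear listed total and 3 without knockout 1. The lower count there was 1 without a filter on low values, 0 with a mean of at least 50, and 1 without any 1 library other than knockout 1. The list includes SLC25A4, the ADP/ATP carrier (500 ± 16.9 to 800 ± 45.9). The lowest gene of that list, named after its value was seen, was ABAT, a transaminase, at 68.4 ± 29.6 in control and 14.2 ± 8.94 in knockout cells. Translation factors split with 5 higher and 4 lower of 9, with TSFM at 0.78 and MRRF, a ribosome recycling factor, at -0.74, but without control 1 the lower count was 2. With neighbouring genes subtracted all 4 lower calls were lost: MRRF, MTIF2 and MTIF3 were at -0.04, -0.11 and -0.17 and did not pass, and TACO1 turned and passed as higher at 0.39. Of 7 nuclear regulators 3 were higher and 2 lower: ESRRA rose from 1033 ± 39.3 to 1690 ± 45.7, and PPRC1, a coactivator of the PGC-1 family, fell from 1329 ± 53.3 to 1004 ± 82.2. With the median of neighbouring genes subtracted PPRC1 turned and passed as higher at 0.25 (limma-trend adjusted p = 0.0107), as did CREB1, the other gene called lower, at 0.36 (0.000461), and GABPA did not pass (-0.07).

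The mtDNA subunits can be set beside their nuclear partners in the same complexes. Counts are read against the 47.3% called higher among all tested genes. In complex I, 23 of 37 nuclear subunits written were tested, and 22 of the 23 were higher. The median log2 fold change of the 23 was 0.68, against 0.24 to 0.52 for the 4 mtDNA subunits. In complex III, 8 of 9 were higher with a median of 0.58, led by UQCR10 (0.92), against 1.08 for MT-CYB. Of 6 complex III assembly factors written, 3 were tested and all 3 were called higher. However, UQCC3, LYRM7 and BCS1L gave only 1 call under each other scaling and under edgeR and DESeq2. They gave 1 call without any 1 of control 2, control 3, knockout 2 or knockout 3, and 0 with neighbouring genes subtracted. In complex IV, 10 of 11 were higher with a median of 0.43, against 0.29 and 0.46 for MT-CO1 and MT-CO2. For ATP synthase the count was 13 of 14 higher and the median 0.58, against 0.47 for MT-ATP6. Complex II, which has no mtDNA subunit, had 4 of 4 higher and a median of 0.31. With the median of neighbouring genes subtracted, 14 nuclear subunits of complex I, 3 of complex III, 5 of complex IV and 1 of complex II were called higher. With the length trend removed the counts were 5 for complex IV and 2 for complex II. The difference between mtDNA and nuclear subunits was not tested. MT-CYB was the 1 mtDNA gene above the largest value of its complex's nuclear subunits.

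**Figure D5:**
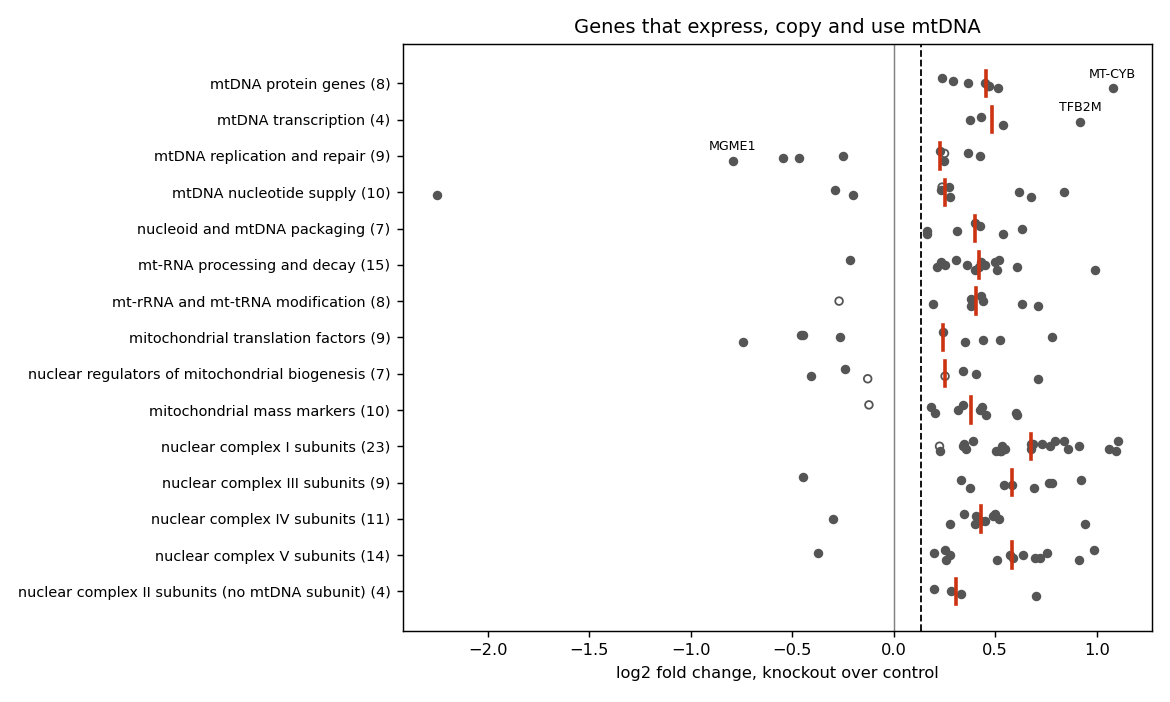
Each point is a tested gene at its log2 fold change (x axis), in rows by list with the number tested in brackets; filled points passed at adjusted p below 0.05, open points did not, red ticks are list medians and the dashed line is the median of all tested genes, 0.14. TFB2M and MT-CYB are the rightmost genes of their lists and MGME1 the leftmost of replication and repair.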

How the data were processed

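RNA from Kasumi-1 cells (6 libraries) was selected with poly-T beads and made into directional libraries, per the labels' protocols. The submitters' processing notes name hg38, HISAT2 and DESeq2. Counter, strand setting and versions were not given in the sources used here. Each library's deposited signal is the authors' read count divided by a size factor. Dividing by what 1 read is worth gave whole numbers within 0.001 for 100% of values, less certain for control 3 and knockout 2, where that step (0.991 and 0.993) is near 1. The authors also deposited a log2 fold change and p-values per gene, unadjusted and adjusted.

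Genes with a mean of at least 10 (7516) were tested on log2(value + 1) by a two-sided limma-trend fit without a block (R 4.3.3, limma 3.58.1). Benjamini-Hochberg adjustment was over 19860 genes, the number the deposited adjusted p-values imply. Ratios and shares within libraries used exact permutation tests over libraries. Fits were tested on simulated data. Alternatives were other scalings, edgeR 4.0.16 and DESeq2 1.42.0 on recovered reads, filters, pseudocounts, a replicate block, leaving out libraries, and removal of the trend with gene length (lowess, fraction 0.5) or of the median of genes within 5 Mb. Named genes were all members, other mtDNA rows, nuclear copies, up to 4 called genes of each list that changed most and had a mean of 50 or more, the 3 nearest profiles and the nearest listed genes. Members and lists were chosen with earlier results of these data known. Sequences came from GENCODE release 29 and RefSeq. A marker of other cells is not reported here.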

Additional observations from a re-analysis of the deposited data

How the results depend on the processing

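Of the 10 genes, MT-ND1, MT-CO2, MT-ATP6, MT-CYB and TFB2M passed with the same direction under all 18 alternatives, and no gene of the 10 reversed. Removal of neighbouring genes leaves mtDNA fold changes as they were by design, so it is no check on those genes. MT-CO1 did not pass with no filter on low values (0.29, adjusted p = 0.0626) or with the length trend removed (0.062, adjusted p = 1), and its values without 1 library ran from 0.19 to 0.36 (adjusted p over all alternatives 0.000378 to 1). MT-ND4L (0.077, adjusted p = 0.738) and MT-ND4 (0.13, 0.347) did not pass with the length trend removed, which left 5 of the 8 mtDNA genes called; the cause was not tested. Without 1 library MT-ND4L ran from 0.17 to 0.30. MT-ND3 did not pass with DESeq2 (0.46, adjusted p = 0.0668), nor MGME1 with neighbouring genes removed (-0.21, 0.0733), a setting that left 2191 genes called higher in place of 3557. Counts without 1 library were 6 to 8 mtDNA genes, 3053 to 3281 genes higher and 3057 to 3258 lower. With the nuclear listed total as scale, 2906 genes were higher and 3708 lower.

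Same-numbered libraries did not deviate together (correlations 0.009, -0.003 and -0.05), so the numbers were not taken as pairs. With a replicate block 3569 genes were higher and 3522 lower, and all 10 genes passed. By design a block leaves the group differences as they were. The shift of MT-CYB relative to the other mtDNA mRNAs, 0.61 as before, is therefore not checked by it.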
